A study of Mus musculus with 32 samples.

Results

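The genes described here encode 7 subunits of the GABA-A receptor, namely Gabra2, Gabra3, Gabra4, Gabra5, Gabrb1, Gabrb2, and Gabrd, and their mRNA levels were followed in cultured mouse cortical neurons. They were chosen by gene symbol and make up 7 of the 49671 genes in the deposited count table and 7 of the 19 GABA-A subunit genes it holds, which are given with their Ensembl identifier and their position in GRCm38. All 7 were detected in every one of the 32 libraries and passed the filter on low counts. Wild-type C57BL/6 cultures under 4 conditions were compared at 6 h and at 5 d, with 4 libraries per condition and time, labelled as biological replicates. Cells were left untreated or received miR-92a-1-5p, Mut.oligo, or miR-124-5p. Both miRNAs were examined by the study as extracellular signals to neurons, and Mut.oligo is an oligoribonucleotide with an altered let-7b sequence that served as the control for sequence. Values with the oligoribonucleotides are given for miR-92a-1-5p first, for miR-124-5p second, and for Mut.oligo last. Neurons came from the forebrain of late-gestation embryos, and how long they had been in culture before exposure was not given for these libraries in the sources used here.

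The GABA-A receptor is a chloride channel made of 5 subunits, and it carries most of the fast inhibition in the adult brain. A typical receptor joins alpha and beta subunits, between which GABA binds, with a gamma or a delta subunit. Receptors with a gamma subunit gather mainly at synapses, whereas delta-containing receptors lie outside them and give a steady, tonic current. The alpha subunit sets much of the pharmacology. In the rodent forebrain, subunits such as alpha 2, alpha 3, and alpha 5 are prominent before and around birth, and delta gains ground as neurons mature.

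The libraries held between 24514090 and 73626029 counts, with medians of 33021610 at 6 h and 50126395 at 5 d. They came from 13 experiment batches, 7 at 6 h and 6 at 5 d, and 0 batches held both times. Time and batch therefore cannot be told apart, and every difference between 6 h and 5 d is a difference between separate cultures and batches. Neuronal markers (Rbfox3, Tubb3, Map2, and others) were detected throughout, with summed levels of 6648 to 7693 CPM at 6 h (counts scaled to the normalised library total) and 5403 to 8552 CPM at 5 d. The 8 astrocyte markers summed to 360 to 771 CPM at 6 h and to 1592 to 2906 CPM at 5 d, and the 6 markers of cycling cells to 137 to 378 CPM and 31.5 to 95.5 CPM. Their part in the changes of the subunit genes was not tested, and in bulk RNA fewer cells of a type cannot be told from less RNA per cell.

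The count columns of the 2 time points also differed for genes that overlap on opposite strands. Among 21 genes with at least 90% of their exon bases opposite the exons of another gene and a mean of at least 1 CPM at 5 d, 12 (57.1%) had at most 3 counts in every 6 h library, against 1 of 9463 genes without such bases. Med10, for instance, had 0 counts at 6 h and a mean of 40.0 CPM at 5 d. In the other direction, 3 of 4 such genes with at least 1 CPM at 6 h had at most 3 counts in every 5 d library. Among genes without such bases this held for 25 of 9426. Counting without strand leaves out reads of such genes. The methods state that strand was used, and whether it was used alike for both time points was not tested further. Gabra2, Gabra3, Gabrb2, and Gabrd had 0 exon bases opposite another gene, Gabra4 and Gabrb1 had 46 each (0.756% and 0.332% of their exons, at their shared 5′ ends), and Gabra5 had 148 (4.98%).

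Gabra4 and Gabrb1 lie head to head on chromosome 5 and are transcribed in opposite directions. The RefSeq start sites used here were 387 bases apart, at 71658308 for Gabra4 and 71657921 for Gabrb1 in GRCm38, and the gene models of the annotation overlap at their 5′ ends. Their promoters are shown because both genes had higher mRNA levels at 5 d, and that of Gabra3 because it rose most among the alpha subunits. Each window comes from RefSeq (GRCm38.p6) and runs from 250 bases before to 50 bases after the start site on the gene's own strand. Capitals mark matches on either strand to 9 motifs: the TATA box TATAAA, the GC box written GGGCGG, the full cAMP response element TGACGTCA and the TGACG it contains, the NRF1 motif, the EGR motif GCGTGGGCG, the CCAAT box, and the E-boxes CACGTG and CAGNTG.
Gabra4, chr5:71658259-71658558, minus strand: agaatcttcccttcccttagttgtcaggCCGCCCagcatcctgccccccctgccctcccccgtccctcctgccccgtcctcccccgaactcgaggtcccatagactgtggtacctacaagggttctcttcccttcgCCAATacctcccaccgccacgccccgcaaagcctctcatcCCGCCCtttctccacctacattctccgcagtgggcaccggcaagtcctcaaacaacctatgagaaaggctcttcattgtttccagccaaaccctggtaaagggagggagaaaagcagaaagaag
Gabrb1, chr5:71657671-71657970, plus strand: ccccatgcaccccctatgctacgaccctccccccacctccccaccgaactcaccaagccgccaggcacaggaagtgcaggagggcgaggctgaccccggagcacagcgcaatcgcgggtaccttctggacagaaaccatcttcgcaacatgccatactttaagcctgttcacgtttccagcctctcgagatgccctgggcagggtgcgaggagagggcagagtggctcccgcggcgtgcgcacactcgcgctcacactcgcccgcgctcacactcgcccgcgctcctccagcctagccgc
Gabra3, chrX:72656870-72657169, minus strand: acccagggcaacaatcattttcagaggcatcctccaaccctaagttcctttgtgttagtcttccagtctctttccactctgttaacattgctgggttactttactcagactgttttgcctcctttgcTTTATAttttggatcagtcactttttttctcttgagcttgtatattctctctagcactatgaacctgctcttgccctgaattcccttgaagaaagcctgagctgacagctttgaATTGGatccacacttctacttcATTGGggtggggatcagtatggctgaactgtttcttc

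The Gabra4 window held GGGCGG at positions -222 and -74 and CCAAT at -114, counted from the start site, and 58.7% of its bases were G or C. The Gabrb1 window was richer in G and C, at 66.0%, and held none of the 9 motifs. A second RefSeq window of Gabrb1, chr5:71699682-71699981, held the NRF1 motif at -16, which 0.971% of all promoters hold. The Gabra3 window had 43.0% G and C, below the median of 52.7% over 32851 promoters, and held TATAAA at -123 and CCAAT at -9 and 14. A second, overlapping RefSeq window of Gabra3, chrX:72656758-72657057, had 39.3% G and C. There TATAAA lay at -235 and CCAAT at -121 and -99, so the positions depend on the start site used. Such letters are common: TATAAA occurred in 13.6% of all promoters of that length, GGGCGG in 35.7%, and CCAAT in 37.4%. RefSeq windows were found for 6 of the 7 genes, all but Gabrd. Of their 10 windows, 6 held CCAAT, and these belonged to 5 of the 6 genes.

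**Figure D1:**
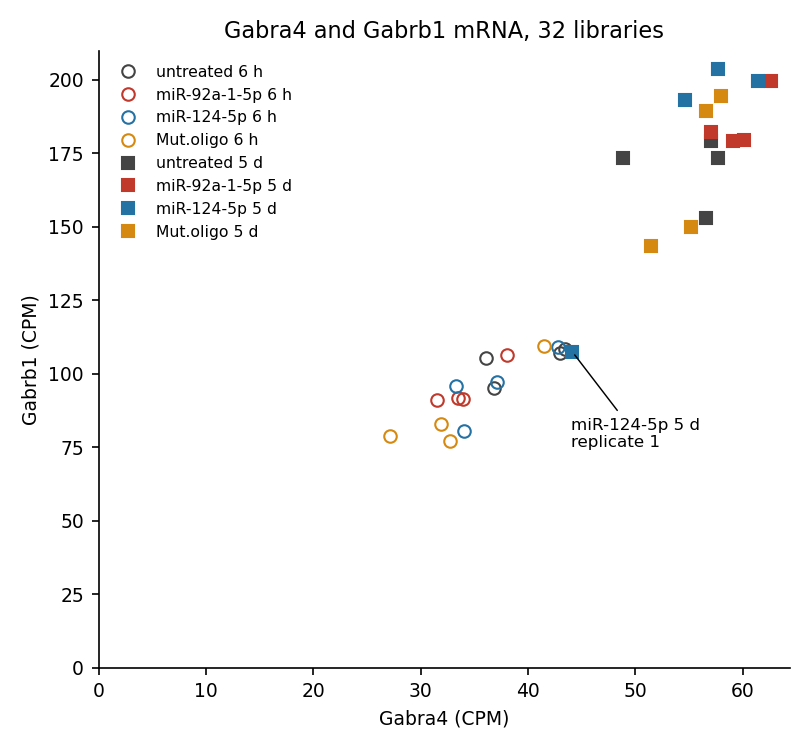
Levels of Gabrb1 (vertical axis, CPM) against Gabra4 (horizontal axis, CPM), with each of the 32 libraries a point, open circles for 6 h, filled squares for 5 d, and colours for the 4 conditions. The 6 h libraries lie below 44.1 CPM of Gabra4, the 5 d libraries at or above it, and the labelled miR-124-5p 5 d replicate 1 has the lowest Gabrb1 level of the 5 d libraries, at 108 CPM.

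In untreated neurons, the delta and alpha 3 subunit mRNAs had the largest differences between 6 h and 5 d, followed by beta 1, whereas alpha 2 stayed within the spread of the replicates. Gabrd was 2.71-fold, Gabra3 2.40-fold, and Gabrb1 1.60-fold higher at 5 d (4 libraries per time). These 3 of 7 genes passed the test of time in untreated cultures and 0 fell. Over all 20425 genes tested, 33.5% passed in either direction and 19.1% were higher. The test was edgeR's quasi-likelihood test, and a call needed both an adjusted p (Benjamini-Hochberg) under 0.05 and a change of more than 0.5 on the log2 scale. Lower levels were found for 14.3% of all genes. In the same contrast 8 of 8 astrocyte markers were higher and 6 of 6 cycling cell markers lower. The neuronal markers moved both ways, with 2 of 10 higher and 3 lower. Of 12 interneuron markers (Gad1, Dlx1, Sst, and others), 2 were higher and 5 lower. The median log2 fold change was 0.44 over the 7 genes and 0.04 over all genes.

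Gabra2 (ENSMUSG00000000560, chr5:70957597-71095849, minus strand) encodes the alpha 2 subunit, which is common in forebrain receptors and is concentrated at the axon initial segment. Its level in the 4 untreated libraries was 98.7, 93.4, 77.6, and 74.3 CPM at 6 h and 84.7, 88.0, 82.9, and 84.2 CPM at 5 d. The 5 d libraries all lay inside the 6 h range. The log2 fold change was -0.04 (SE 0.119, adjusted p = 0.783), and it was 0.06, -0.01, and 0.07 in cultures with the 3 oligoribonucleotides. Over the 16 libraries of each time, Gabra2 ranged from 68.1 to 100.2 CPM at 6 h and from 66.3 to 98.7 CPM at 5 d.

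Gabra3 (ENSMUSG00000031343, chrX:72432681-72656848, minus strand) encodes the alpha 3 subunit, which is abundant in the immature cortex. Untreated libraries held 37.0, 32.8, 56.6, and 36.6 CPM at 6 h against 115, 95.3, 96.1, and 92.9 CPM at 5 d. The lowest 5 d library was well above the highest 6 h library, and the groups did not overlap. The log2 fold change was 1.27 (SE 0.154, adjusted p = 4.95e-08). With miR-92a-1-5p the values were 58.8, 41.9, 40.3, and 36.8 CPM at 6 h and 111, 111, 87.3, and 97.6 CPM at 5 d. With miR-124-5p they were 39.4, 41.1, 39.2, and 58.1 CPM and then 95.6, 104, 86.5, and 95.6 CPM. Mut.oligo cultures gave 39.1, 44.8, 44.6, and 35.3 CPM at 6 h and 107, 89.1, 81.6, and 92.4 CPM at 5 d. In all 4 conditions the time points were apart, and the log2 fold changes with the oligoribonucleotides were 1.20, 1.10, and 1.17 (adjusted p = 9.46e-08, 4.79e-07, and 1.98e-07). The highest Gabra3 level at 6 h in untreated cultures and in those with either miRNA came from 3 libraries that share 1 experiment batch.

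Gabra4 (ENSMUSG00000029211, chr5:71569749-71658308, minus strand) encodes the alpha 4 subunit, a partner of delta in extrasynaptic receptors. In untreated cultures it measured 43.5, 43.0, 36.1, and 36.9 CPM at 6 h and 57.7, 57.1, 56.6, and 48.9 CPM at 5 d. The groups did not overlap, but the log2 fold change of 0.44 (SE 0.103, adjusted p = 0.000599) was below the size required for a call. In the other cultures the size was met. Levels with miR-92a-1-5p were 31.5, 33.5, 33.9, and 38.0 CPM at 6 h and 57.1, 62.6, 59.1, and 60.1 CPM at 5 d, a log2 fold change of 0.81 (adjusted p = 1.01e-07). Those with miR-124-5p were 34.1, 42.8, 37.1, and 33.3 CPM and then 44.1, 61.4, 57.7, and 54.6 CPM, a log2 fold change of 0.57 (adjusted p = 2.76e-05). With Mut.oligo they were 31.9, 32.7, 41.5, and 27.1 CPM and then 56.6, 57.9, 51.4, and 55.2 CPM, a log2 fold change of 0.72 (adjusted p = 8.9e-07). Every 5 d library exceeded every 6 h library within its condition, and also across all 32 libraries, where 6 h spanned 27.1 to 43.5 CPM and 5 d 44.1 to 62.6 CPM. The untreated call rested on the settings: without 6 h replicate 1 or without 5 d replicate 4 the log2 fold change was 0.53 and passed.

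Gabra5 (ENSMUSG00000055078, chr7:57407672-57510059, minus strand) encodes the alpha 5 subunit, which gives receptors a high affinity for GABA and is best known from the hippocampus. Untreated libraries held 124.3, 139, 109, and 134 CPM at 6 h and 147, 187, 125, and 158 CPM at 5 d. The 2 groups overlapped, and the log2 fold change of 0.26 (SE 0.131, adjusted p = 0.0961) did not pass. In miR-92a-1-5p cultures the levels were 96.3, 105, 112, and 117 CPM at 6 h and 137, 170.0, 189, and 192 CPM at 5 d. In miR-124-5p cultures they were 114, 119.7, 108, and 99.5 CPM, then 114, 156, 211, and 169.7 CPM. In Mut.oligo cultures they were 105, 107, 116, and 94.4 CPM, then 151, 192, 177, and 171 CPM. Gabra5 passed in these 3 conditions with log2 fold changes of 0.68, 0.57, and 0.70 (adjusted p = 5.57e-05, 0.000489, and 4.29e-05). The miR-124-5p call was lost without 5 d replicate 3 (0.44, adjusted p = 0.00503).

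Gabrb1 (ENSMUSG00000029212, chr5:71658113-72149037, plus strand) encodes the beta 1 subunit. It measured 108, 107, 105, and 95.3 CPM in untreated cultures at 6 h and 173, 179, 153, and 173 CPM at 5 d, with no overlap. The log2 fold change was 0.68 (SE 0.141, adjusted p = 0.000146). With miR-92a-1-5p, levels of 91.2, 91.7, 91.6, and 106 CPM at 6 h stood against 182, 199.6, 179, and 179 CPM at 5 d. With miR-124-5p, 80.6, 109, 97.2, and 95.8 CPM stood against 108, 199.6, 204, and 193 CPM. With Mut.oligo, 83.0, 77.2, 109, and 78.7 CPM stood against 189, 195, 143, and 149.8 CPM. The time points overlapped only with miR-124-5p, where 5 d replicate 1 lay in the 6 h range. All 3 log2 fold changes passed, at 0.97, 0.89, and 0.95 (adjusted p = 9.89e-07, 4.14e-06, and 1.44e-06).

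Gabrb2 (ENSMUSG00000007653, chr11:42419757-42629028, plus strand) encodes the beta 2 subunit, which is widespread in receptors of the adult brain. Untreated cultures had 83.0, 72.1, 84.3, and 79.4 CPM at 6 h and 89.5, 109, 99.2, and 106 CPM at 5 d. The groups were apart, yet the log2 fold change of 0.31 (SE 0.155, adjusted p = 0.0877) did not pass. The values with the oligoribonucleotides were 0.42, 0.29, and 0.39 (adjusted p = 0.0219, 0.121, and 0.0337), of which none reached the required size. Over all libraries Gabrb2 spanned 64.0 to 86.1 CPM at 6 h and 50.4 to 116 CPM at 5 d. Without miR-92a-1-5p 6 h replicate 1, or without Mut.oligo 6 h replicate 3, the log2 fold change in that condition was 0.51 and passed.

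Gabrd (ENSMUSG00000029054, chr4:155384980-155398112, minus strand) encodes the delta subunit of extrasynaptic receptors and was the least abundant of the 7. Its untreated levels of 1.84, 1.20, 1.72, and 2.26 CPM at 6 h rested on 55, 38, 57, and 86 counts. At 5 d the levels of 5.31, 5.30, 4.24, and 4.62 CPM rested on 315, 250, 231, and 275 counts. The groups were far apart, with a log2 fold change of 1.44 (SE 0.160, adjusted p = 9.14e-09). Levels were 1.79, 2.00, 1.90, and 1.76 CPM with miR-92a-1-5p at 6 h and 4.07, 5.64, 4.59, and 4.62 CPM at 5 d. With miR-124-5p they were 2.08, 1.89, 1.48, and 2.39 CPM and then 6.66, 4.60, 4.58, and 4.33 CPM. With Mut.oligo they were 1.96, 1.70, 2.02, and 1.97 CPM and then 5.46, 4.81, 5.87, and 5.61 CPM. No 5 d library of any condition came down to the 6 h range, and the log2 fold changes were 1.35, 1.36, and 1.50 (adjusted p = 1.64e-08, 2.17e-08, and 4.05e-09).

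**Figure D2:**
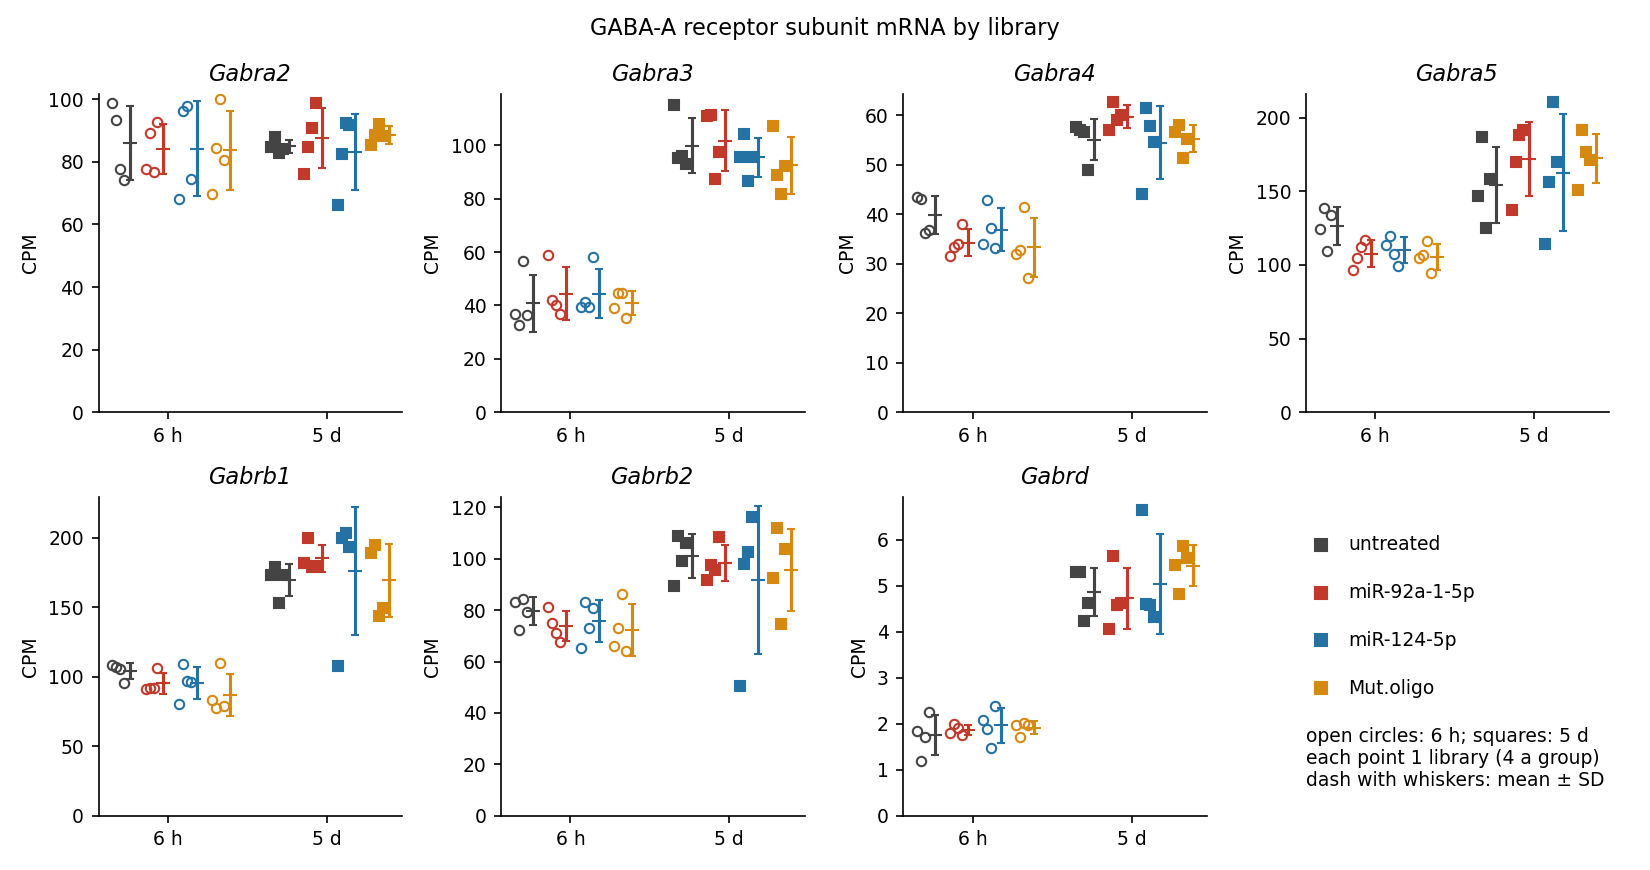
Level of each subunit mRNA (CPM, vertical axes from 0) in every library at 6 h (open circles) and 5 d (filled squares), coloured by condition, with the mean and SD of the 4 libraries beside them. Gabra3, Gabra4, and Gabrd have no 5 d library in the 6 h range, whereas Gabra2 covers like ranges at both times.

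Cultures with an oligoribonucleotide had 5 of 7 subunit genes higher at 5 d in each condition and 0 lower, namely Gabra3, Gabra4, Gabra5, Gabrb1, and Gabrd. The share of all genes called in either direction was 34.1% with miR-92a-1-5p, 34.2% with miR-124-5p, and 34.1% with Mut.oligo. Higher levels were found for 18.3%, 19.5%, and 18.7% of all genes and lower levels for 15.7%, 14.7%, and 15.4%. The medians over the 7 genes were 0.81, 0.57, and 0.72 on the log2 scale, against -0.01, 0.02, and 0.01 over all genes. Libraries of the time points did not overlap for 5 of 7 genes in untreated cultures and for 6, 3, and 5 in the others, all higher at 5 d, where 25%, 24.9%, 22.5%, and 25.3% of all genes were higher without overlap. When only the 17712 genes with at most 10% of their exon bases opposite another gene were fitted, an alternative chosen after seeing the data, 4 genes passed in untreated cultures (Gabra4 at 0.50 besides the 3) and 5 in each other condition, where 19.1%, 18.1%, 18.7%, and 18.1% of those genes were higher. The 4 time contrasts use separate libraries, but the conditions share batches and the fit shares an estimate of the spread. They are therefore not independent repeats.

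**Figure D3:**
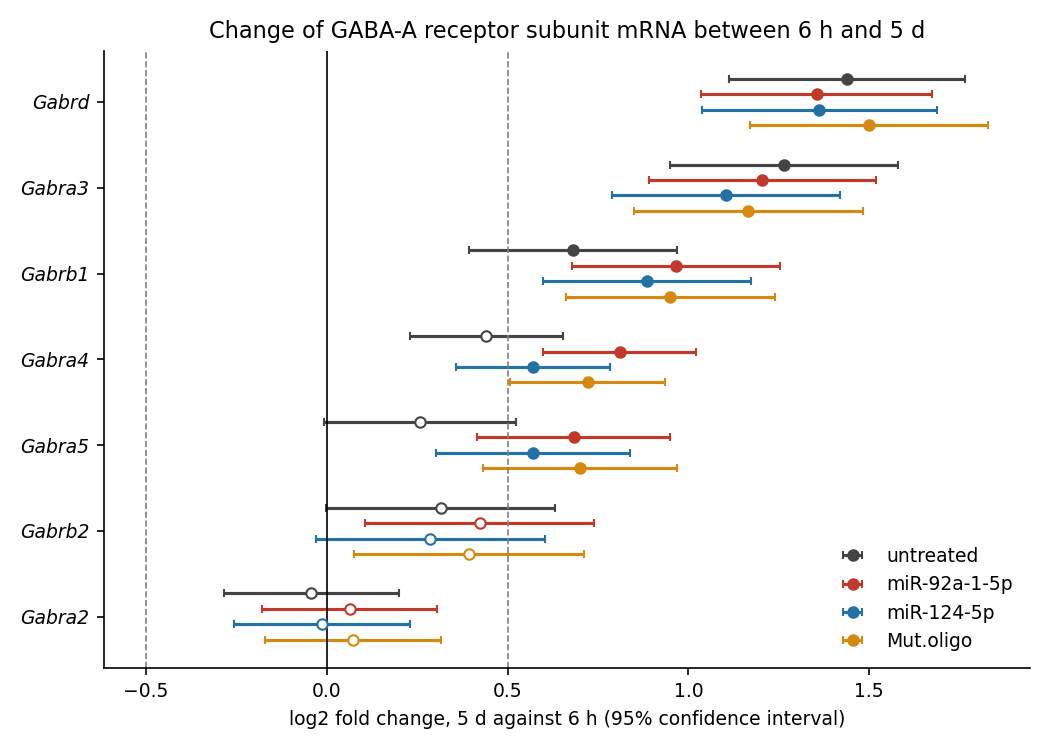
Log2 fold change of each subunit gene between 6 h and 5 d (horizontal axis) in the 4 conditions, with 95% confidence intervals from the edgeR fit and dashed lines at 0.5 and -0.5. Filled points passed the test, and Gabrd (1.35 to 1.50) and Gabra3 (1.10 to 1.27) lie farthest to the right.

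Whether the change over time differed between conditions was tested directly as an interaction. In these tests 0 of 7 subunit genes and 0% of all 20425 genes passed with each oligoribonucleotide, and 3.92%, 2.64%, and 5.55% had an unadjusted p under 0.05, as did 2, 0, and 1 of the 7 subunit genes. DESeq2 also called 0 of 7, but its share of all genes is not given here. The largest differences from untreated concerned the alpha 4 and alpha 5 subunits. For Gabra5 the 5 d to 6 h difference was greater by 0.42 on the log2 scale with miR-92a-1-5p (95% interval 0.05 to 0.80, unadjusted p = 0.0286, edgeR adjusted p = 1) and by 0.44 with Mut.oligo (0.06 to 0.82, unadjusted p = 0.0233, edgeR adjusted p = 0.857). For Gabra4 it was greater by 0.37 with miR-92a-1-5p (0.07 to 0.67, unadjusted p = 0.0171, edgeR adjusted p = 1). Conditions of a time point shared batches, and with the batch as a covariate the miR-92a-1-5p values were larger and more precise. Gabra5 was then 0.50 (SE 0.0883, edgeR adjusted p = 0.0315; DESeq2 adjusted p = 0.000306) and Gabra4 0.49 (SE 0.106, edgeR adjusted p = 0.0584; DESeq2 adjusted p = 0.00531). These values lay just under the change of 0.5 required, and Gabra4 in edgeR also missed the adjusted p limit of 0.05. Neither gene was called with either tool.

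To compare levels between subunits, counts were divided by exon length and scaled to the library (TPM). TPM did not use the normalization factors that CPM used, so changes over time can differ between the measures. In untreated neurons at 6 h, Gabra5 led with 168 ± 18.4 TPM (SD, n = 4), and its libraries lay above those of all other members. Gabrb2 (49.3 ± 2.98 TPM), Gabra2 (44.3 ± 6.29 TPM), and Gabra3 (40.8 ± 10.5 TPM) followed, and neighbours in this trio overlapped. Gabrb1 (29.6 ± 1.75 TPM) and Gabra4 (25.8 ± 2.66 TPM) also overlapped, and Gabrd was lowest at 2.40 ± 0.586 TPM. At 5 d the order was Gabra5 (218 ± 28.9 TPM), Gabra3 (107 ± 10.7 TPM), Gabrb2 (66.8 ± 5.74 TPM), Gabrb1 (51.6 ± 1.58 TPM), Gabra2 (46.8 ± 1.07 TPM), Gabra4 (38.1 ± 3.16 TPM), and Gabrd (7.11 ± 0.513 TPM), and no neighbours overlapped in untreated cultures. Gabra3 thus stood second at 5 d after standing with Gabra2 and Gabrb2 at 6 h. With miR-124-5p and with Mut.oligo, Gabrb2, Gabrb1, and Gabra2 overlapped at 5 d.

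The alpha subunit mRNAs shifted in proportion as well as in level. The TPM of each was divided by the sum over the alpha genes, and these shares are given as a description without a test. Gabra5 made up 57.3% ± 4.20 (SD, n = 4) of alpha mRNA in untreated neurons at 6 h and 49.7% ± 4.74 at 5 d, with overlapping libraries. The Gabra3 share was 14.1% ± 4.26 and 24.6% ± 2.95, and its libraries moved from 10.8% to 20.3% up to 21.2% to 27.9%. The Gabra2 share was 15.1% ± 1.78 and 10.7% ± 0.628, apart in the other direction, although the Gabra2 level itself barely moved. Gabra4 held 8.81% ± 0.630 and 8.75% ± 0.900 of alpha mRNA. In the other 3 conditions the Gabra2 share ranged from 13.5% to 18.8% at 6 h and from 9.80% to 11.3% at 5 d, and the Gabra3 share from 13.4% to 22.6% and from 18.2% to 29.1%. Shares depend on the gene lengths used: with the longest transcript in place of all exons, the untreated Gabra2 share was 16.6% and 11.8% and that of Gabra3 12.7% and 22.3%.

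**Figure D4:**
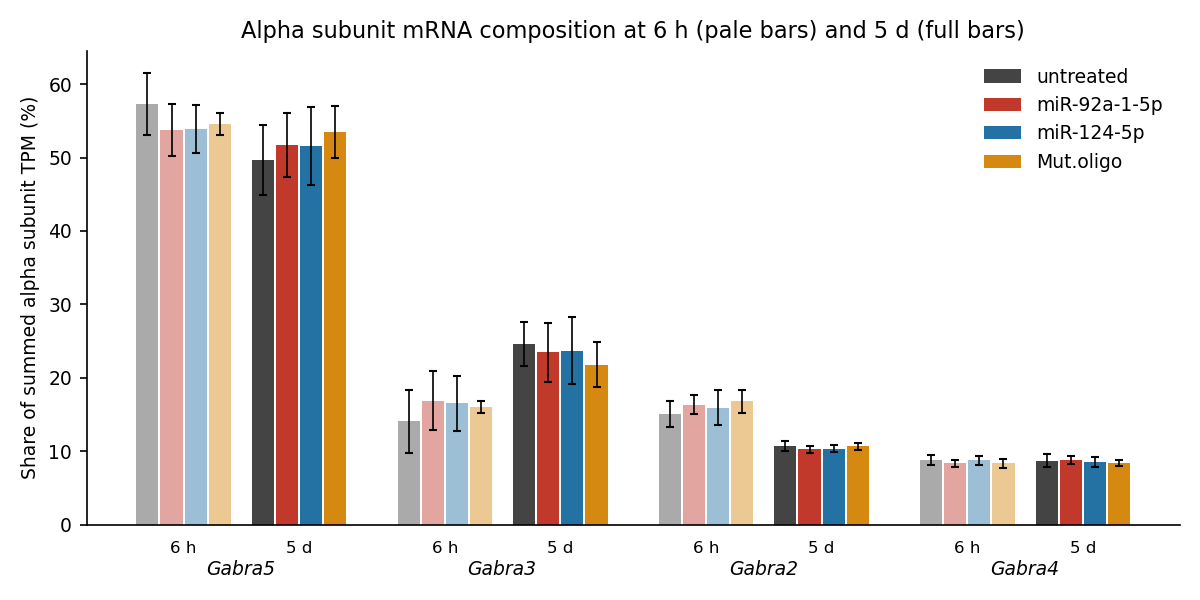
Share of the summed TPM of the alpha genes (percent, vertical axis from 0) for the 4 alpha genes described at 6 h (pale bars) and 5 d (full bars) in the 4 conditions, as means with SD over 4 libraries. The Gabra3 bars are higher and the Gabra2 bars lower at 5 d, and Gabra5 is the largest share at both times.

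Of the summed beta subunit TPM in untreated cultures, Gabrb1 held 8.89% at 6 h (8.22% to 9.44%) and 11.1% at 5 d (10.5% to 11.9%), whereas Gabrb2 held 14.8% and 14.4%. Of the gamma and delta mRNA, the Gabrd share was 2.55% at 6 h (1.61% to 3.49%) and 3.91% at 5 d (3.39% to 4.38%), and these ranges overlapped although the Gabrd level did not. Summed over all 19 subunit genes, untreated neurons had 723 ± 19.8 TPM at 6 h and 1088 ± 33.8 TPM at 5 d (SD, n = 4).

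The other 12 subunit genes set the 7 in context, and 6 of the 9 that could be tested were higher at 5 d in untreated cultures, where 19.1% of all genes were. Gabrg1, a gamma subunit also known from astrocytes, rose to 40.1 CPM (log2 fold change 1.49, adjusted p = 2.41e-13). Gabrg3, another gamma subunit gene, rose from 25.7 to 43.8 CPM (0.75, adjusted p = 2.16e-06). Gabrq, encoding theta, and Gabre, encoding epsilon, also passed, at 0.65 and 0.88 (adjusted p = 0.0104 and 0.0337), from levels of 2.25 and 0.461 CPM at 6 h. Gabrr1 and Gabrr2, which encode rho subunits of retinal receptors, measured -0.72 and 0.78 and did not pass (adjusted p = 0.162 and 0.1). Gabra6, Gabrp, and Gabrr3 had too few counts to be tested. With the oligoribonucleotides 5, 6, and 6 of the 9 were higher, where 18.3%, 19.5%, and 18.7% of all genes were.

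Genes that act beside the receptor were described from 4 lists, to be read against the 19.1% of all genes that were higher and the 14.3% that were lower at 5 d in untreated cultures. Of 18 genes for scaffolds and trafficking, 3 were higher at 5 d in untreated cultures and 0 lower: Hap1, which carries receptors to the surface, at 1.53 on the log2 scale (adjusted p = 3.66e-09), Gabarapl1 at 0.54 (adjusted p = 5.04e-08), and Shisa7 at 0.51 (adjusted p = 0.00106). Gphn, encoding the synaptic scaffold gephyrin, measured -0.08 (adjusted p = 0.299). Of 9 genes for synthesis and transport of GABA, 4 were higher, among them the degrading enzymes Abat at 0.73 (adjusted p = 1.02e-07) and Aldh5a1 at 0.66 (adjusted p = 1.4e-08). Of 6 genes of the metabotropic GABA-B receptor, 5 were higher, including Gabbr2 at 0.63 (adjusted p = 9.77e-07), Kctd16 at 1.64 (adjusted p = 1.38e-06), and Kctd12 at 2.00 (adjusted p = 6.85e-12). Exon bases opposite another gene made up 62.8% of Kctd12, 28.3% of Gabarapl1, and 17.7% of Aldh5a1, and the part of the counting in these 3 values was not tested.

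Chloride transport decides whether opening the receptor inhibits or depolarises a neuron. Of 11 genes for chloride and bicarbonate, 2 were higher and 1 was lower in untreated cultures at 5 d, where 19.1% and 14.3% of all genes were. These shares, and that of the scaffold list, were near or below those of all genes. Slc12a5, encoding the chloride exporter KCC2 of maturing neurons, rose from 85.5 to 229 CPM (log2 fold change 1.39, adjusted p = 6.34e-13). Car2, a carbonic anhydrase, was higher by 1.22 (adjusted p = 1.34e-08), and Slc12a7 was lower, at -0.93 (adjusted p = 8.68e-08). Slc12a2, encoding the importer NKCC1, measured 0.16 (adjusted p = 0.147).

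After exposure for 6 h, no subunit gene passed the same criteria. In the comparisons of the 3 oligoribonucleotides with untreated cultures, 0 of 7 passed, as did 0%, 0%, and 0% of the 18755 genes tested. An unadjusted p under 0.05 was found for 1, 1, and 3 of the 7 genes and for 4.75%, 4.54%, and 9.49% of all genes. DESeq2 also called 0 of 7, but its share of all genes is not given here. No subunit gene had libraries apart from the untreated ones, where 3.35%, 3.24%, and 4.3% of all genes did. These 3 comparisons share the untreated libraries. The study itself, using DESeq2 and an adjusted p under 0.05, reported some genes as changed by each miRNA at 6 h. At 5 d it reported changed genes with all 3 oligoribonucleotides. The shares of all genes given here hold for the edgeR fit used here.

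Gabra5 was the member with the lowest unadjusted p in each of these comparisons at 6 h. Its values, given above, ran from 109 to 139 CPM untreated, and those with miR-92a-1-5p from 96.3 to 117 CPM. Its log2 fold change was -0.25 with miR-92a-1-5p (95% interval -0.42 to -0.08, unadjusted p = 0.00732, edgeR adjusted p = 0.999). With miR-124-5p it was -0.20 (-0.37 to -0.03, unadjusted p = 0.0235, edgeR adjusted p = 1), and with Mut.oligo -0.26 (-0.43 to -0.09, unadjusted p = 0.00557, edgeR adjusted p = 0.386). The untreated replicate 3, at 109 CPM, overlapped the exposed libraries. Within the 4 batches that held both untreated and miR-92a-1-5p cultures at 6 h, Gabra5 was lower with miR-92a-1-5p in 4 of 4, by -0.26 to -0.18. How many of all genes had such agreement in sign was not computed. With the batch as a covariate the Gabra5 value was -0.25 (SE 0.0415, edgeR adjusted p = 0.00998), still under the size required for a call. With Mut.oligo it was -0.24 (edgeR adjusted p = 0.145, DESeq2 adjusted p = 0.0281).

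Gabra4 measured -0.23 (-0.46 to 0.00), -0.12 (-0.35 to 0.12), and -0.25 (-0.49 to -0.02) against untreated at 6 h in the same order, and Gabrb1 -0.14 (-0.36 to 0.08), -0.12 (-0.34 to 0.10), and -0.25 (-0.47 to -0.03). Within the 4 shared batches both were lower with miR-92a-1-5p in 4 of 4, Gabra4 by -0.38 to -0.12 and Gabrb1 by -0.24 to -0.01. Gabrb2 lay between -0.14 and -0.08 and was lower in 4 of 4 of these batches (-0.16 to -0.06), and Gabra2 between -0.04 and -0.03. Gabra3 and Gabrd had positive values in all 3 comparisons, 0.01 to 0.13 and 0.07 to 0.15, with intervals that include 0. Within shared batches Gabra3 was higher in 4 of 4 with miR-92a-1-5p (0.06 to 0.18) and in 2 of 2 with each other oligoribonucleotide. With the batch as a covariate Gabra3 was 0.12 (SE 0.0390, edgeR adjusted p = 0.176) with miR-92a-1-5p and 0.18 (SE 0.0491, edgeR adjusted p = 0.273) with Mut.oligo. None of these passed. The signs within batches are not independent between genes, since all rest on the same libraries and several of the genes vary together. The share of all genes with such agreement was not computed.

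After 5 d of exposure the log2 fold changes of the 7 genes against untreated lay between -0.11 and 0.17. Again 0 of 7 passed with each oligoribonucleotide, where 0.00517%, 0%, and 0% of the 19333 genes tested did, and 0 of 7 had an unadjusted p under 0.05, where 3.63%, 2.6%, and 2.79% of all genes had one. DESeq2 also called 0 of 7, but its share of all genes is not given here. Gabra5 measured 0.17 (95% interval -0.16 to 0.51), 0.10 (-0.23 to 0.43), and 0.16 (-0.17 to 0.49). Gabra3 measured 0.05 (-0.16 to 0.26), -0.04 (-0.25 to 0.17), and -0.11 (-0.31 to 0.10), and Gabrd -0.02 (-0.32 to 0.28), 0.07 (-0.22 to 0.37), and 0.16 (-0.13 to 0.46). Gabrb1 with miR-92a-1-5p was the sole case of libraries apart from untreated, 179 to 199.6 CPM against 153 to 179 CPM, at a log2 fold change of 0.14 (-0.18 to 0.47), where 2.87% of all genes were apart. With the other oligoribonucleotides 0 of 7 genes were apart, where 1.9% and 1.97% of all genes were. With the batch as a covariate the sign of Gabrb2 turned for miR-92a-1-5p (from -0.02 to 0.26) and for miR-124-5p (from -0.11 to 0.11).

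The miRNAs were also set against Mut.oligo, the control for sequence. In these 4 comparisons 0 of 7 subunit genes passed, with 0% of all genes passing in each. An unadjusted p under 0.05 was found for 2.12% and 3.58% of all genes at 6 h, for 1.98% and 1.68% at 5 d, and for 0 of 7 subunit genes. DESeq2 also called 0 of 7, but its share of all genes is not given here. The log2 differences ranged from -0.06 to 0.14 at 6 h and from -0.18 to 0.16 at 5 d, and 0 of 7 genes had groups apart in any of them, where 1.45% and 2.18% of all genes did at 6 h and 1.8% and 1.47% at 5 d. For Gabra5 the 6 h differences were 0.01 (95% interval -0.16 to 0.18) with miR-92a-1-5p and 0.06 (-0.12 to 0.23) with miR-124-5p. For Gabrd the interval with miR-92a-1-5p was -0.44 to 0.32 at 6 h, the widest of that comparison, at counts of 38 to 132 per library over the 6 h libraries.

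**Figure D5:**
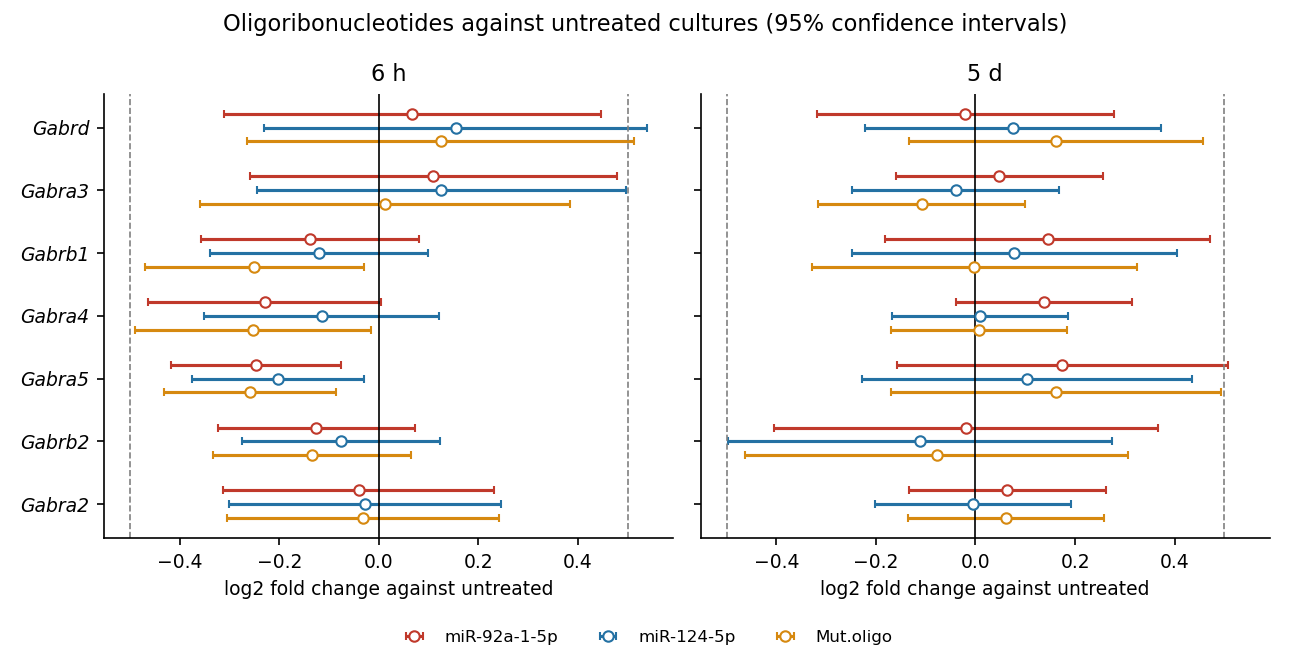
Log2 fold change of each subunit gene against untreated (horizontal axes) at 6 h (left) and 5 d (right) for the 3 oligoribonucleotides, with 95% confidence intervals from the edgeR fit and dashed lines at 0.5 and -0.5. All points are open since 0 passed, and the 3 Gabra5 points at 6 h lie at -0.26 to -0.20.

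A single library, miR-124-5p 5 d replicate 1, stood apart for the subunit genes and also differed beyond them. Its mitochondrial share of counts (0.996%) was the lowest of all libraries. Its normalization factor (1.067) was the highest, but only just above that of untreated 5 d replicate 3 (1.065). The miR-124-5p 5 d replicate 1 had the lowest level of Gabra2, Gabra4, Gabra5, Gabrb1, and Gabrb2 and the highest level of Gabrd in its time point, and its batch was shared with 1 other library, miR-92a-1-5p 5 d replicate 1. Without it, the time contrast of miR-124-5p kept 5 of 7 genes higher, with Gabrb1 at 1.06 and Gabrd at 1.21 on the log2 scale, and 0 of 7 genes passed against untreated at 5 d. There Gabrb1 measured 0.25 (edgeR unadjusted p = 0.0188, adjusted p = 0.979), Gabrb2 0.09 in place of -0.11, and Gabrd -0.09 in place of 0.07. The shares of all genes passing without this library are not given.

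The miRNA sequence allowed 1 more description. The mature miR-92a-1-5p of RefSeq (chr14:115044437-115044459, plus strand, GRCm38.p6) is shown with its seed, bases 2 to 8, in capitals, because pairing of the seed is how a miRNA inside a cell finds its targets.
miR-92a-1-5p: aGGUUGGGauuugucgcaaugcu
The complement of this seed, CCCAACC, occurred 1 time in the longest annotated 3′ UTR of Gabrb1, which has 12228 bases, and 0 times in those of the other 6 genes. It occurred in 9.02% of 21022 genes, and in 45.5% of 77 genes with a 3′ UTR of like length. A match of letters is no measured site, and Gabrb1 was 0.14 higher than untreated with miR-92a-1-5p at 5 d and at -0.14 at 6 h on the log2 scale, neither past the test.

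The 7 genes also varied together to different degrees over the 32 libraries, some of which share batches and which differ in depth. Gabra4 and Gabrb1, the neighbours on chromosome 5, had the highest correlation among members after the mean of each time was subtracted (Pearson r = 0.78 on log2 CPM, 0.85 within 6 h and 0.79 within 5 d), and Gabrb1 and Gabrb2 followed at 0.75. Among the 13654 genes with a mean of at least 1 CPM, the pattern most like that of Gabra3 was Vstm2a (r = 0.98), that of Gabra4 Slitrk4 (0.98), and that of Gabrb1 Ppm1e (0.98). For Gabrd it was Fam216a (0.97), for Gabra5 Rgs7 (0.96), for Gabrb2 Scai (0.94), and for Gabra2 Cul2 (0.79). With the time means subtracted the closest genes were Plppr4 for Gabra4 (0.95), Trim44 for Gabrb2 (0.93), Ywhaz for Gabra5 (0.91), Kcnh7 for Gabrb1 (0.91), Zfp811 for Gabra3 (0.85), U2surp for Gabra2 (0.83), and Rogdi for Gabrd (0.71). These are descriptions over n = 32 libraries.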

How the data were processed

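RNA-seq counts of 49671 genes in 32 libraries were deposited without normalization. Per the labels and methods, the authors aligned reads of stranded mRNA libraries to GRCm38 with STAR and counted them on exons with featureCounts of Subread, strand included; the 6 h and 5 d columns differed as described for genes on opposite strands. Symbols and positions came from GENCODE M21 of that build, and sequences from RefSeq (GRCm38.p6). A gene was kept where 3 or more libraries had 5 or more counts. The quasi-likelihood test of edgeR 4.0.16 (R 4.3.3, TMM normalization, no covariate) was run over all 32 libraries for time and per time point for the oligoribonucleotides, with adjustment over all genes tested, and DESeq2 1.42.0 was an alternative. TPM and shares used the union of exons. Scripts were tested on simulated data. No replicates were alike within sampling noise (chi-square per degree of freedom 7.10 or more over 48 pairs), and p-values measure the spread between libraries labelled as biological replicates. Replicate numbers matched the batches only in part, more so at 5 d, where the libraries numbered 4 all shared 1 batch. Same-numbered libraries had a median correlation of -0.0445 at 6 h and 0.107 at 5 d. For libraries of 1 batch it was 0.220 and 0.175. The 7 genes and the lists were chosen with earlier results of these data known. Named were the subunit genes, up to 3 called genes per other list and direction by smallest p, and the gene most like each member. Some genes this rule names are not reported here.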

Additional observations from a re-analysis of the deposited data

Results flagged for a closer look

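Of 56 sets of 4 libraries (7 genes in 8 groups), 8 held a library whose gap to its nearest neighbour, as a share of the range of the group, passed the 95% limit of Dixon for 4 values, where chance flags about 1 in 20 groups, or 2.8 of these. Gabrb1 had 3 of them: the highest value was set apart in miR-92a-1-5p 6 h replicate 4 (0.967) and 5 d replicate 2 (0.851), and the lowest in miR-124-5p 5 d replicate 1 (0.919). For Gabra3 the highest library stood apart in miR-124-5p 6 h replicate 4 (0.882) and untreated 5 d replicate 1 (0.844). For Gabra4 the lowest was untreated 5 d replicate 4 (0.882). For Gabrd the lowest was Mut.oligo 6 h replicate 2 (0.841) and the highest miR-124-5p 5 d replicate 1 (0.860).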

How the results depend on the processing

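The numbers of subunit genes called over time (3, 5, 5, and 5) and against untreated or Mut.oligo (0) were recomputed with other size factors and filters, DESeq2, a replicate block, the batch as covariate (not possible over time), and each library left out. With a library left out, the time counts ranged from 3 to 4 in untreated and from 5 to 6 with miR-92a-1-5p. They ranged from 4 to 5 with miR-124-5p and from 5 to 6 with Mut.oligo. All other comparisons stayed at 0. The shares of all genes passing in these fits are not given. With the batch as covariate and no minimum fold change, chosen after seeing the data, Gabra5 passed in 2 comparisons in edgeR. The count was 1 for miR-92a-1-5p against untreated at 6 h and 1 for its interaction with time. The shares of all genes passing under this setting are not given, so these counts cannot be read against them. DESeq2 with the batch also gave an adjusted p under 0.05 for Gabra4 in the miR-92a-1-5p interaction (0.00531) and for Gabra5 with Mut.oligo against untreated at 6 h (0.0281). The cause was not tested. The replicate block changed no count (3, 5, 5, and 5 over time, 0 elsewhere). With that block, 3863, 3722, 3987, and 3812 of all 20425 genes were higher at 5 d.

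Single values turned sign with the batch as covariate, given for edgeR and then DESeq2. Gabrb2 was 0.22 and 0.21 in the interaction of miR-124-5p, and against untreated at 5 d 0.26 and 0.26 with miR-92a-1-5p and 0.11 and 0.11 with miR-124-5p. Gabrd was -0.069 and -0.068 with miR-124-5p against untreated at 5 d, and Gabra3 -0.089 and -0.091 with miR-124-5p against Mut.oligo at 6 h. Gabra5 was 0.098 and 0.10 with miR-124-5p against Mut.oligo at 5 d. With a library left out, values with miR-124-5p at 5 d ranged against untreated from -0.25 to 0.089 for Gabrb2 and from -0.089 to 0.13 for Gabrd, and against Mut.oligo from -0.12 to 0.028 for Gabra2 and from -0.18 to 0.17 for Gabrb2, the end of other sign being without 5 d replicate 1. None of these passed. Uncalled sign changes of at most 1 SE, 140 in all, are counted as unchanged. Depth limits Gabrd at 6 h most, at 38 to 132 counts per library.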
